A study of Mus musculus with 17 samples.

Results

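The iron handling genes examined here are 9 genes that take up, move, store, export or sense iron: Fth1, Ftl1, Tfrc, Slc11a1, Slc11a2, Slc40a1, Cp, Hamp and Ireb2. They were taken by gene symbol from a list of iron genes, which was drawn up with earlier results of these data known, and all 9 were found among the 21683 rows of the expression table. RNA-Seq was performed on peritoneal macrophages (PMs) to ask how the HIV protein Tat changes the macrophage transcriptome and what part of that change depends on IKKβ, a kinase that activates NF-κB. PMs came from 8-week-old C57BL/6 mice given 1 mL of 3% thioglycollate in the peritoneum. The study states that its experimental mice were male and describes the control mice as littermates, without saying so for these donors. The cells attached for 4 h and were then treated for 12 h. Control PMs of genotype IKKβF/FLDLR-/- received PBS (F/F PBS, n = 6 libraries) or 100 nM recombinant Tat (F/F Tat, n = 6). PMs of genotype IKKβΔMyeLDLR-/- received the same dose of Tat (ΔMye Tat, n = 5). All groups therefore lack the LDL receptor and carry floxed IKKβ alleles, and the ΔMye mice also carry 1 copy of LysM-Cre, a Cre inserted at the lysozyme locus and active in macrophages and neutrophils. The sample labels put the collection 3 days after thioglycollate. The methods text puts it at 4 days. The study describes the libraries as biological replicates of mice but does not say whether any mice were pooled, so the p-values measure the spread between these libraries.

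Macrophages recycle most of the body's iron. They take up transferrin-bound iron through transferrin receptor 1 (Tfrc), move it out of endosomes and phagosomes through the transporters DMT1 (Slc11a2) and NRAMP1 (Slc11a1), store it in ferritin, a shell built from heavy (Fth1) and light (Ftl1) chains, and release it through ferroportin (Slc40a1). The hormone hepcidin (Hamp), made mainly by the liver and also by activated macrophages, binds ferroportin and causes its degradation, while ceruloplasmin (Cp) oxidizes the iron that leaves the cell. When iron is scarce, the iron regulatory proteins IRP1 (Aco1) and IRP2 (Ireb2) bind RNA stem-loops called iron-responsive elements, which blocks translation when the element lies in the 5′ UTR and protects the mRNA from decay when it lies in the 3′ UTR.

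The stem-loops are shown because the iron regulatory proteins are known to bind such elements in the mRNA of some members. A search of the GENCODE M21 transcripts (GRCm38) on the transcribed strand, for an unpaired C followed by 5 bases, the loop CAGTGN with any last base but G, and 5 bases that pair with the first 5 (G-T pairs allowed), found 7 matches in 4 of the 9 genes. Each is printed 5′ to 3′ in a 30-base window with the loop in capitals.
Fth1, exon 1, 5′ UTR, chr19:9982732-9982761, + strand: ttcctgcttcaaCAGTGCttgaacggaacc
Ftl1, exon 1, 5′ UTR, chr7:45459778-45459807, - strand: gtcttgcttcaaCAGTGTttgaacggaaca
Slc40a1, exon 1, 5′ UTR, chr1:45925464-45925493, - strand: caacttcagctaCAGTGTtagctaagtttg
Tfrc, exon 19, 3′ UTR, chr16:32631219-32631248, + strand: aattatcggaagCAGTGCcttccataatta
Tfrc, exon 19, 3′ UTR, chr16:32631598-32631627, + strand: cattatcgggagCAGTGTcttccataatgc
Tfrc, exon 19, 3′ UTR, chr16:32631663-32631692, + strand: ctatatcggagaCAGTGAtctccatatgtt
Tfrc, exon 19, 3′ UTR, chr16:32631710-32631739, + strand: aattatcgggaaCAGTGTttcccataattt
The 2 ferritin windows were identical at 26 of 30 bases. The Slc40a1 window shared 13 of 30 bases with each ferritin window, and the 4 Tfrc windows shared 18 to 25 bases with one another. Of 10336 tested protein-coding genes, 0.155% had such a match in a 5′ UTR and 0.61% in a 3′ UTR. No match in the other 5 members means only that these letters were not found. An element that departs from this strict pattern would be missed, so the search does not list every member that these proteins may bind. TPM measure RNA level and not translation, so for the 5′ elements of Fth1, Ftl1 and Slc40a1 these data do not hold the readout that the element is known to control.

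**Figure D1:**
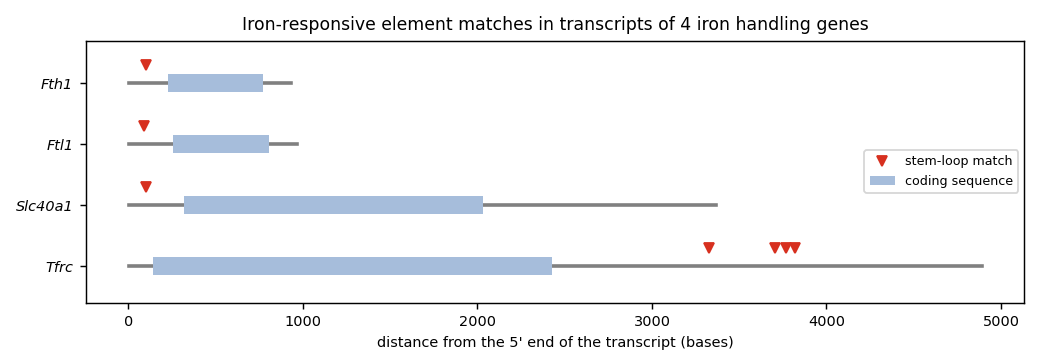
Position of the stem-loop matches (triangles) along 1 transcript of each of the 4 genes, with the coding sequence as a blue bar, in bases from the 5′ end. Each triangle marks the first base of the loop, which is base 99 of Fth1, 90 of Ftl1 and 102 of Slc40a1, all before the coding sequence, and bases 3327 to 3818 for the 4 Tfrc loops, after it.

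Expression was given as TPM, the relative number of transcripts of a gene after correction for transcript length. Read numbers cannot be recovered from TPM. Sequencing depth is therefore unknown, and counting intervals cannot be given. Of all rows, 10451 genes reached at least 1 TPM in at least 5 libraries and were tested with limma on log2(TPM + 0.1). A gene is said below to rise or fall at an adjusted p under 0.01, and is called only when the fold also exceeds 3. The median tested gene itself shifted between groups. Its log2 difference was -0.65 with Tat in F/F PMs, 0.22 with IKKβ deficiency under Tat, and -0.43 when ΔMye Tat was set against the PBS libraries. Log2 differences are therefore also given after median-ratio scaling (scaled values), which brings these medians to -0.03, 0.01 and -0.02. Macrophage markers summed to 3421 to 4181 TPM in every library, with Cd68 highest. The single markers moved in opposite directions, so the sum does not mean that each was steady. From F/F PBS to F/F Tat the mean of Csf1r went from 381 to 64.0 TPM and that of Itgam from 178 to 106 TPM. Cd14 went from 203 to 842 TPM and Fcgr1 from 113 to 300 TPM. Adgre1 and Cd68 also had lower means and Mertk a higher one. Neutrophil markers (10 genes) summed to 109 to 122 TPM in F/F PBS. With Tat, their sum was 193 to 210 TPM in F/F and 228 to 250 TPM in ΔMye PMs, with Elane and Ngp at 0 in all libraries. S100a8 and Csf3r made up most of that sum and had higher means with Tat, while the mean of Retnlg was 5.07 TPM in F/F PBS and 0.671 TPM in F/F Tat. Erythroid markers (8 genes) summed to 0.169 to 0.891, 0 to 1.87 and 7.94 to 14.3 TPM in the same group order, with Hbb-bs highest in ΔMye Tat. The part of these other cells in the results below was not tested, and in bulk RNA fewer cells of a type and less RNA per cell cannot be told apart. Ikbkb, which encodes IKKβ, was 21.6 to 25.4 TPM in F/F Tat and 12.8 to 19.9 TPM in ΔMye Tat, with no overlap (log2 difference -0.51, standard error (SE) 0.08, adjusted p = 4.51e-05, limma, scaled -0.73), a weak check because Cre removes only part of the gene.

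In PBS-treated PMs, which had been elicited with thioglycollate, the members spanned the whole range of expression, from the most abundant mRNA of the library to a gene listed at 0. In F/F PBS the order of mean levels was Fth1 (50587 TPM), Ftl1 (42632), Slc11a1 (535), Slc11a2 (94.6), Tfrc (49.6), Ireb2 (13.2), Slc40a1 (1.88), Cp (1.68) and Hamp (0.0666), and only Slc40a1 and Cp overlapped as neighbours. With Tat the order changed in its lower part. In F/F Tat, Hamp moved up to a mean of 20.96 TPM, above Ireb2 (12.4 TPM), Tfrc (9.26 TPM), Cp (6.02 TPM) and Slc40a1 (0.521 TPM), and no neighbours overlapped. The order in ΔMye Tat was that of F/F Tat, with Hamp and Ireb2 overlapping.

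**Figure D2:**
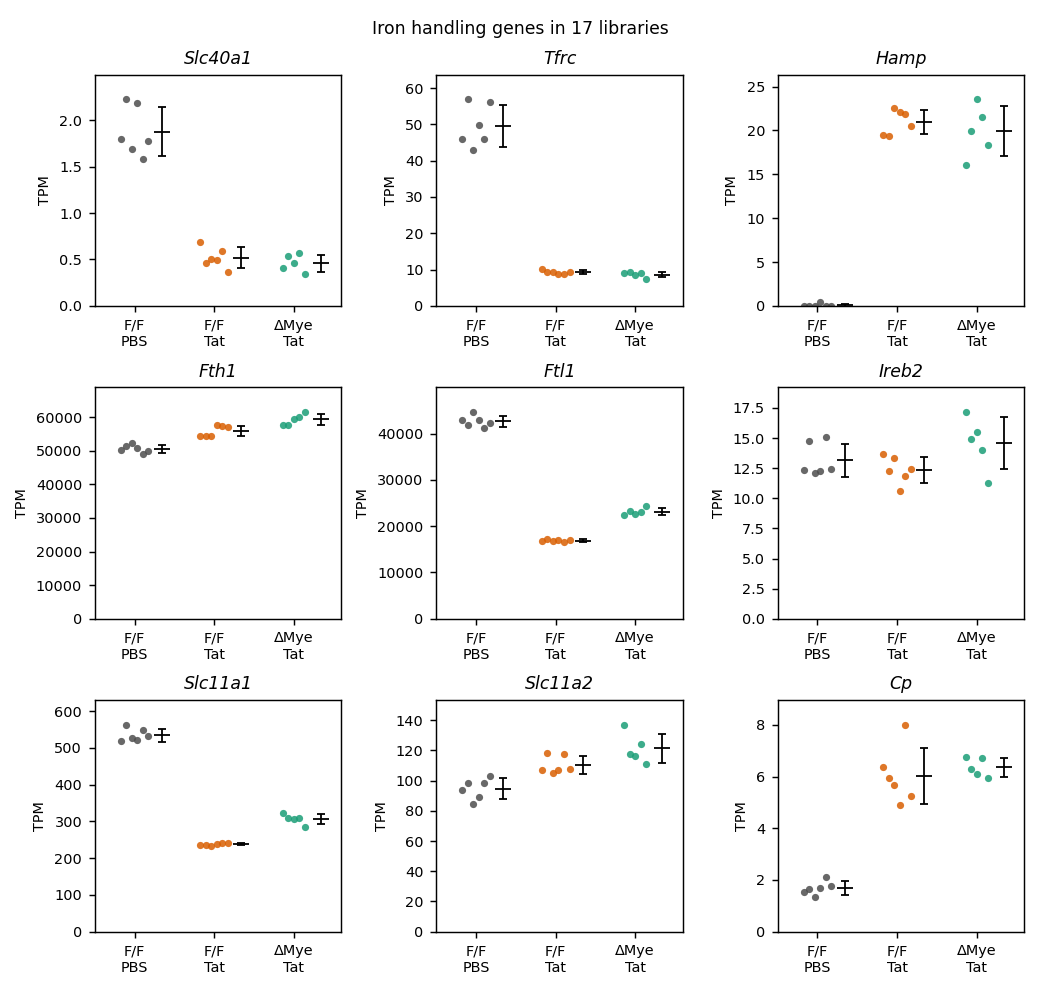
TPM of the 9 iron handling genes in each of 17 libraries (points) by group, with the group mean and SD beside them; each panel has its own linear axis from 0. Hamp is listed at 0 in 5 of 6 F/F PBS libraries and lies between 16.1 and 23.5 TPM with Tat, whereas Tfrc lies between 43.1 and 56.9 TPM in F/F PBS and between 7.38 and 10.1 TPM with Tat.

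Tat treatment of F/F PMs was accompanied by lower mRNA levels of the transferrin receptor and ferroportin, the uptake and export ends of the pathway, and by higher mRNA levels of hepcidin and ceruloplasmin. Of the 9 members, 2 were called higher (Hamp and Cp) and 2 lower (Tfrc and Slc40a1), where 24.6% of all tested genes were called, 5.21% higher and 19.4% lower. Leaving out the fold threshold, 4 rose and 4 fell, where 84.6% of all tested genes passed, 17% rising and 67.6% falling. After scaling, 2 were called higher and 1 lower (18.3% of all genes). The groups did not overlap for 8 of 9 members, against 77.6% of all genes. Hamp and Slc40a1 met the filter on low values only through the groups in which they were higher, so their calls add no weight to these counts.

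The 2 ferritin chains moved apart. Ftl1, the light chain, was 41170 TPM at the lowest, 42634 at the median and 44601 at the highest in F/F PBS, and 16565, 16876 and 17228 TPM in F/F Tat. The 2 groups were far apart, with a log2 difference of -1.34 (SE 0.02, adjusted p = 3.26e-20, limma) or -0.70 after scaling. Fth1, the heavy chain with the ferroxidase site, was 48932, 50395 and 52210 TPM in F/F PBS and 54433, 55732 and 57668 TPM in F/F Tat, again without overlap. Its log2 difference was 0.14 (SE 0.02, adjusted p = 2.50e-05, limma), rose to 0.78 after scaling and was 0 under quantile normalization, where the most abundant gene of every library receives the same value. Fth1 was the most abundant of the listed genes in all 17 libraries, while Ftl1 ranked 2nd in every F/F PBS library and 3rd in every F/F Tat library. The 2 genes together took 10.1 to 10.9% of the listed TPM in F/F PBS and 7.88 to 8.27% in F/F Tat. Of the 31-base sequences of Ftl1, 57.7% also occur in other genes, mostly copies such as Ftl1-ps1 (9.31 to 78.2 TPM over all libraries), so the share of reads that belongs to Ftl1 is uncertain, and adding Ftl1-ps1 to it changed no call.

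Of the 3 members of iron uptake and vesicle transport, only Tfrc, the receptor for transferrin-bound iron, was called. Tfrc was 43.1, 47.9 and 56.9 TPM at the lowest, median and highest in F/F PBS, and 8.68, 9.36 and 10.1 TPM in F/F Tat. The groups lay wide apart, with a log2 difference of -2.40 (SE 0.07, adjusted p = 1.20e-16, limma) or -1.77 after scaling, so Tfrc was called on both scales. The 2 transporters of the NRAMP family, which carry divalent metals, went in different directions. Slc11a1, a transporter of the phagosome membrane known for resistance to intracellular bacteria, was 518 to 562 TPM (median 529) in F/F PBS and 235 to 242 TPM (median 238) in F/F Tat. It fell by 1.16 on the log2 scale (SE 0.03, adjusted p = 2.53e-18, limma), or 0.53 after scaling, without reaching the fold threshold. Slc11a2, which moves iron out of endosomes, was 84.5 to 103 TPM (median 96.2) in F/F PBS and 105 to 119 TPM (median 107) in F/F Tat. It rose by 0.23 on the log2 scale (SE 0.05, adjusted p = 0.000674, limma) and by 0.86 after scaling, a direction unlike that of Slc11a1 on either scale.

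Ferroportin, the only known iron exporter of these cells, was a low-level mRNA in all groups. Slc40a1 was 1.59, 1.79 and 2.22 TPM at the lowest, median and highest in F/F PBS and 0.370, 0.502 and 0.692 TPM in F/F Tat. No F/F Tat library reached the lowest F/F PBS library, and the log2 difference was -1.68 (SE 0.16, adjusted p = 9.45e-09, limma). It was -1.11 after scaling and -1.22 with a pseudocount of 0.5, both short of the fold threshold and both at an adjusted p under 0.01. Cp, whose product oxidizes exported iron, was 1.33, 1.69 and 2.11 TPM in F/F PBS and 4.91, 5.80 and 7.99 TPM in F/F Tat. These groups did not overlap, and Cp rose by 1.77 on the log2 scale (SE 0.12, adjusted p = 2.12e-11, limma), or 2.38 after scaling. With a pseudocount of 0.5 the difference was 1.57, just under the fold threshold. Cp overlaps Hps3 on the opposite strand, and since strand-specific counting is not stated, reads of the 2 genes cannot be told apart where they overlap.

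Hamp showed the widest separation of any member. In F/F PBS it was listed at 0 in 5 libraries and was 0.400 TPM in library 4, whereas the 6 libraries of F/F Tat held 19.4, 19.4, 22.5, 22.1, 21.8 and 20.5 TPM. Every Tat library was thus far above every PBS library. A gene near 0 in one group has no meaningful fold, and the fitted log2 difference depended on the pseudocount, at 7.33 with 0.1 (adjusted p = 1.13e-14, limma, scaled 7.66), 5.28 with 0.5 and 4.37 with 1. Of its 31-base sequences, 33.7% occur in Hamp2, the second mouse hepcidin gene. Hamp2 was listed at 0 in all Tat libraries and reached 0.895 TPM in F/F PBS, and adding it to Hamp left the difference past both thresholds at 6.27. Hamp also overlaps a non-coding gene, Gm44662, on the opposite strand. The RefSeq promoter of Hamp (GRCm38, 250 bases before to 50 after the start site) is of interest because liver hepcidin is known to be induced through STAT3. It held 1 match to the STAT motif TTCNNNGAA, read as TTCTTGGAA at position -97 relative to the start site, a match found on either strand in 8.30% of 32851 promoters. The other 6 members with a promoter in that table (Cp, Fth1, Ftl1, Ireb2, Slc11a1 and Tfrc) held none, and a match to the κB motif was found only in Ftl1, against 4.51% of promoters. Neither the antioxidant response element TGACNNNGC nor the interferon-stimulated response element (GAAA, any 2 bases, GAAA) was matched in the 7 members, against 12.4% and 3.44% of promoters.

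Ireb2, the iron sensor IRP2 that is degraded when iron is plentiful, was the member whose difference did not pass the test. It was 12.1, 12.4 and 15.1 TPM at the lowest, median and highest in F/F PBS and 10.6, 12.3 and 13.7 TPM in F/F Tat, and the groups overlapped. The log2 difference was -0.09 (SE 0.09, adjusted p = 0.361, limma), but it turned to 0.54 after scaling (adjusted p = 1.31e-06, limma), so its direction rests on the scaling. Aco1, which encodes the other iron regulatory protein IRP1, fell from 26.3 to 30.6 TPM in F/F PBS to 9.22 to 9.996 TPM in F/F Tat, a log2 difference of -1.53 (SE 0.05, adjusted p = 7.65e-16, limma) or -0.90 after scaling.

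**Figure D3:**
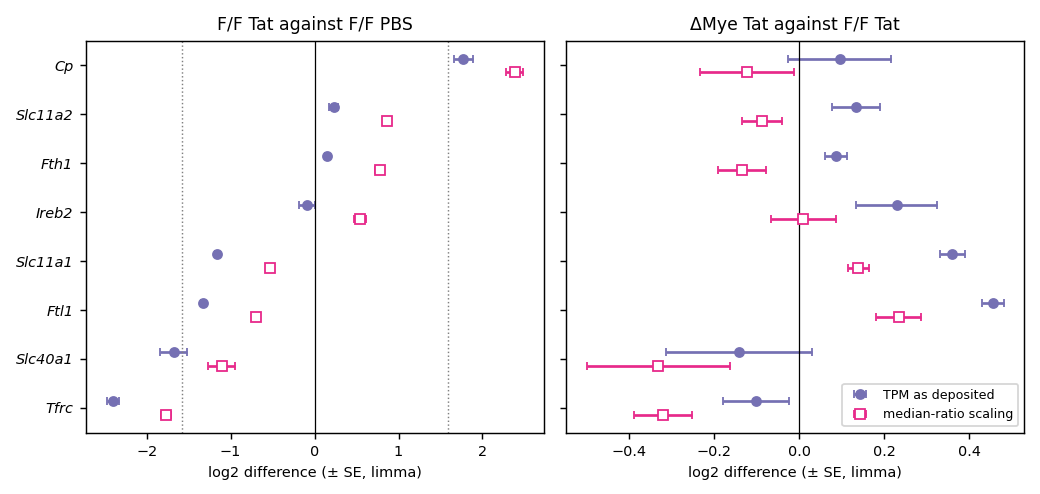
Fitted log2 difference with its SE for 8 members (Hamp is left out, since its value depends on the pseudocount), from TPM as deposited (circles) and after median-ratio scaling (open squares); dotted lines mark a fold of 3. For Tat against PBS, Tfrc at -2.40 and -1.77 lies past the lower line on both scales and Ireb2 lies on opposite sides of 0; for ΔMye Tat against F/F Tat, Fth1, Slc11a2 and Cp are above 0 as deposited and below 0 after scaling.

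Deficiency of IKKβ under Tat was accompanied by small differences in these genes, the largest in the light ferritin chain (0.45 on the log2 scale for Ftl1). The comparison of ΔMye Tat with F/F Tat shares the F/F Tat libraries with the comparison above, and PBS-treated IKKβΔMye PMs are not analysed here. A difference between genotypes can therefore include one present before Tat. With limma, 0 of the 9 members were called, where 0.756% of all tested genes were, and 5 members had an unadjusted p under 0.05. Leaving out the fold threshold, Ftl1, Slc11a1 and Fth1 were higher in ΔMye Tat and 0 lower, where 47.7% of all genes passed, 38.8% higher and 8.87% lower. After scaling, 2 were higher (Ftl1 and Slc11a1) and 1 lower (Tfrc), where 15.9% of all genes were higher and 19.4% lower. The groups did not overlap for 3 of 9 members, against 36.6% of all genes.

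Ftl1 had the largest difference, with levels of 22405, 23238, 22687, 23064 and 24399 TPM in ΔMye Tat. Every one of these was above the highest F/F Tat library and below the lowest F/F PBS library. Ftl1 was thus higher by 0.45 on the log2 scale than in F/F Tat (SE 0.03, adjusted p = 3.26e-11, limma), or 0.23 after scaling, and ranked 2nd in each ΔMye Tat library. Slc11a1 was 322, 309, 306, 309 and 286 TPM in ΔMye Tat, likewise between the ranges of the other groups. Its log2 difference from F/F Tat was 0.36 (SE 0.03, adjusted p = 5.78e-09, limma), or 0.14 after scaling. Fth1 was 57670 to 61481 TPM in ΔMye Tat, barely clear of the highest F/F Tat library. The log2 difference was 0.09 (SE 0.03, adjusted p = 0.00862, limma) as deposited and -0.13 after scaling (adjusted p = 0.0559, limma), so its direction differed between the scales, and it missed the threshold without any one of libraries 1, 4, 6, 7, 8, 9, 12, 21, 22 and 23 (adjusted p 0.0102 to 0.0286, limma).

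The 4 members called with Tat had levels in ΔMye Tat that overlapped those of F/F Tat. Hamp was 16.1, 19.95, 23.5, 21.5 and 18.4 TPM in ΔMye Tat, a range that contains all F/F Tat values, with a log2 difference of -0.08 (SE 0.31, adjusted p = 0.825, limma) or -0.30 after scaling. Tfrc was 9.03, 9.21, 8.54, 9.07 and 7.38 TPM, overlapping F/F Tat, with a log2 difference of -0.10 (SE 0.08, adjusted p = 0.264, limma). After scaling, the Tfrc difference was -0.32 and passed the test (adjusted p = 0.000693, limma). Slc40a1 was 0.411, 0.533, 0.459, 0.565 and 0.339 TPM, a log2 difference of -0.14 (SE 0.17, adjusted p = 0.484, limma) or -0.33 after scaling. Cp was 5.93 to 6.76 TPM, a log2 difference of 0.09 (SE 0.12, adjusted p = 0.512, limma) that turned to -0.12 after scaling. The values of Slc11a2 (111 to 137 TPM) and Ireb2 (11.3 to 17.1 TPM) also overlapped F/F Tat, at log2 differences of 0.13 (adjusted p = 0.0503, limma) and 0.23 (adjusted p = 0.0474, limma), or -0.09 and 0.01 after scaling. Without ΔMye Tat library 23, the Ireb2 difference was 0.32 (adjusted p = 0.0038, limma). A p that misses the threshold does not show that the levels were equal, and the SE of Hamp was the widest among the members.

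Set against F/F PBS, ΔMye Tat gave 4 called members, Tfrc and Slc40a1 lower and Cp and Hamp higher, where 15.5% of all genes were called. After scaling, Slc40a1 no longer reached the fold threshold, which left 3 called members, where 12.7% of all genes were called. As in the F/F comparison, Hamp and Slc40a1 met the filter only through groups in which they were higher, and their calls add no weight to either count. The log2 differences were -2.50 for Tfrc, -1.82 for Slc40a1, 1.87 for Cp and 7.24 for Hamp, beside -2.40, -1.68, 1.77 and 7.33 for F/F Tat against the same PBS libraries. The scaled values were -2.09, -1.44, 2.26 and 7.35, beside -1.77, -1.11, 2.38 and 7.66. Those of Ftl1 and Slc11a1 were -0.88 and -0.80 as deposited, beside -1.34 and -1.16, and -0.47 and -0.39 scaled, beside -0.70 and -0.53.

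Ratios of 2 genes within a library do not depend on scaling between libraries, so they give a reading of the balance between partners. The ratio of Fth1 to Ftl1, heavy to light ferritin chain mRNA, was 1.19 ± 0.0250 (SD, n = 6) in F/F PBS. It was 3.31 ± 0.107 (n = 6) in F/F Tat and 2.56 ± 0.0603 (n = 5) in ΔMye Tat. No 2 groups overlapped, and each difference had p = 0.00216 in an exact two-sided permutation test, the smallest these groups allow (adjusted p = 0.00289 over 12 such tests). The ratio of Slc11a1 to Slc11a2 was 5.67 ± 0.356 in F/F PBS. With Tat it was 2.16 ± 0.109 in F/F and 2.53 ± 0.115 in ΔMye PMs, again with no overlap and the same exact permutation p for each difference. For both pairs, ΔMye Tat lay between the other groups and nearer to F/F Tat. The ratio of Ireb2 to Aco1 rose from 0.468 ± 0.0282 in F/F PBS to 1.28 ± 0.151 in F/F Tat (exact permutation p = 0.00216, no overlap), and was 1.08 ± 0.157 in ΔMye Tat, which overlapped F/F Tat (exact permutation p = 0.0671, adjusted p = 0.0732). Without library 10 of F/F Tat the adjusted p of that last difference was 0.0433. The ratio of Tfrc to Slc40a1, uptake to export, was 26.7 ± 3.06 in F/F PBS, and with Tat it was 18.4 ± 3.97 in F/F and 19.1 ± 2.65 in ΔMye PMs. The Tat and PBS groups of F/F PMs differed with some overlap (exact permutation p = 0.00433, adjusted p = 0.00519), ΔMye Tat lay below F/F PBS without overlap (exact permutation p = 0.00216, adjusted p = 0.00289), and the difference between the Tat groups did not pass the test (exact permutation p = 0.654). Because Slc40a1 is near the bottom of the scale, its Tat difference of -0.55 on the log2 scale became -1.14 with 0.5 TPM added to both genes.

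**Figure D4:**
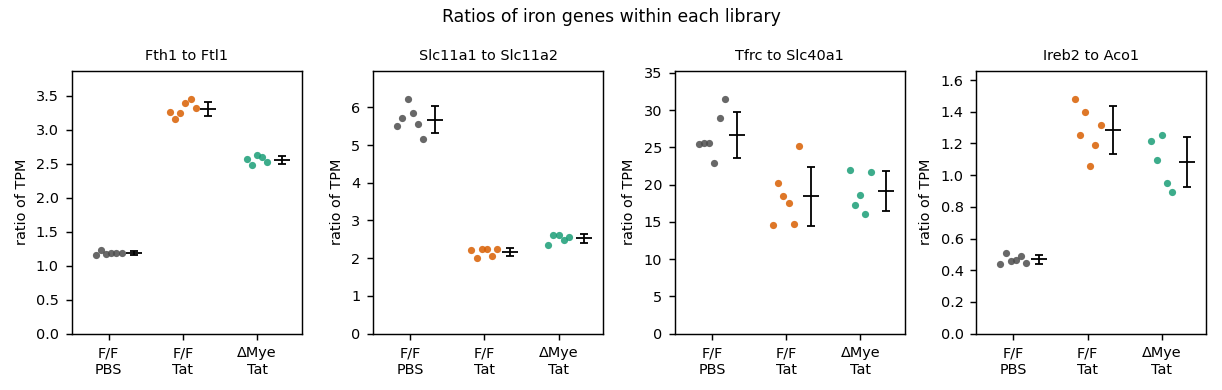
Ratio of TPM of 4 gene pairs in each library (points) by group, with the group mean and SD, on linear axes from 0. The Fth1 to Ftl1 ratio is 1.16 to 1.23 in F/F PBS and, with Tat, 3.16 to 3.46 in F/F and 2.48 to 2.63 in ΔMye PMs, and the Tfrc to Slc40a1 ratio of F/F Tat overlaps both other groups, which do not overlap each other.

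The genes with the most similar course to each called member over the 17 libraries were taken by the smallest Euclidean distance of centred log2(TPM + 0.1). For Hamp these were Il1b (mean 50.1 TPM in F/F PBS and, with Tat, 8208 TPM in F/F and 7278 TPM in ΔMye PMs), Ptgs2 and Ptx3, at distances of 2.07, 2.61 and 2.61. Tfrc was nearest to Fabp4 (628, 128 and 117 TPM), followed by Cd300ld and Fgfr1, at 0.520, 0.588 and 0.645. The nearest genes to Slc40a1 were Atrnl1, Iqgap2 and Asph, at 0.806, 0.821 and 0.822, and Slamf8 and Plcd1 lay near Cp, at 0.642 and 0.688. The distances describe these libraries, in which the group means set most of the pattern. Hamp was listed at 0 in 5 of 6 F/F PBS libraries, so the added 0.1 sets the size of its difference. Its nearest genes may change with another pseudocount, which was not tested. The distances given for Hamp were also larger than those given for the other called members.

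The wider iron pathway was compared in the same way. Of 66 further iron genes in the table, 46 were tested. With Tat, 1 was called higher and 18 lower, where 5.21% and 19.4% of all genes were, and 3 higher and 6 lower after scaling, where 18.3% of all genes were called. Without the fold threshold 6 rose and 38 fell, where 17% and 67.6% of all genes did, or 11 and 32 after scaling, where 37.3% and 38% did. The 46 genes had a median log2 difference of -1.37 beside -0.65 over all genes, or -0.75 beside -0.03 after scaling. Of the 17 tested genes of haem handling, 9 were called lower and 0 higher. They include the haem synthesis enzymes Alad, Urod, Cpox and Fech, the haem transporters Slc48a1 and Flvcr1, the biliverdin reductase Blvra and the haemopexin receptor Lrp1. Flvcr1, for example, was 36.9 to 46.3 TPM in F/F PBS and 8.12 to 10.5 TPM in F/F Tat (log2 difference -2.18, SE 0.07, adjusted p = 1.97e-16, limma, scaled -1.55). After scaling, 1 gene of this group was called lower and 1 higher, the latter being Alas1, the first enzyme of haem synthesis, at 203 to 240 TPM in F/F PBS and 453 to 506 TPM in F/F Tat (log2 difference 1.16 as deposited and 1.79 scaled). Hmox1, which frees iron from haem, was 755 to 797 TPM in F/F PBS and 593 to 636 TPM in F/F Tat, and its log2 difference of -0.34 turned to 0.29 after scaling.

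Of the 5 tested genes of uptake and reduction, 2 were called lower, Slc39a8 and Steap3. After scaling, Slc39a8 lost its call and the iron importer Slc39a14 was called higher, at 6.62 to 8.76 TPM in F/F PBS and 18.3 to 23.5 TPM in F/F Tat (log2 difference 1.41 as deposited and 2.04 scaled). Steap3, the reductase that prepares iron for Slc11a2 in the endosome, was 25.7 to 30.3 TPM in F/F PBS and 0.472 to 1.13 TPM in F/F Tat, a log2 difference of -5.001 (SE 0.16, adjusted p = 2.03e-16, limma) or -4.40 after scaling. Regulators of iron balance gave 3 genes called lower of 6 tested, Hfe, Bmp2 and Neo1. Hfe, a partner of transferrin receptors in hepcidin control, was 12.7 to 17.1 TPM in F/F PBS and 0.746 to 2.37 TPM in F/F Tat (log2 difference -3.27, SE 0.26, adjusted p = 4.63e-10, limma, scaled -2.66). Slc39a8, Bmp2 and Neo1 met the filter only through F/F PBS, the group in which they were higher. Their calls therefore add no weight to the counts of these groups or of the whole wider list. They are included in those counts and in the median of the wider list given above. Among 5 tested storage and chaperone genes, 1 was called lower, Ncoa4, the receptor that delivers ferritin to lysosomes for iron release. Of 12 mitochondrial iron genes, Glrx5, Hscb and Cisd1 were called lower and 0 higher. The counts of these small groups stand beside 19.4% of all tested genes called lower and 5.21% called higher. Counts such as 1 of 5 or 3 of 12 are therefore not a result about these groups. The 1 tested gene of the secreted iron-binding group, Lcn2, encodes the siderophore-binding lipocalin 2 and was the gene called higher, at 160 to 172 TPM in F/F PBS and 1106 to 1184 TPM in F/F Tat (log2 difference 2.79, SE 0.03, adjusted p = 1.92e-24, limma, scaled 3.43). Neutrophils also express Lcn2. The neutrophil marker sum given above was higher with Tat, but S100a8 and Csf3r carried it, while Retnlg was lower. The part of neutrophils in the Lcn2 level was not tested.

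Between ΔMye Tat and F/F Tat, 0 of the 46 wider genes were called with limma, and 35 had an unadjusted p under 0.05. Without the fold threshold, 24 were higher and 3 lower in ΔMye Tat, where 38.8% and 8.87% of all genes were. After scaling, 12 were higher and 9 lower, where 15.9% and 19.4% of all genes were. The largest difference was in Ncoa4, at 42.2 to 47.1 TPM in F/F Tat and 125, 120, 125, 117 and 115 TPM in ΔMye Tat, beside 197 to 237 TPM in F/F PBS. The 3 groups did not overlap, and the log2 difference from F/F Tat was 1.42 (SE 0.05, adjusted p = 1.41e-14, limma) or 1.20 after scaling, a 2.68-fold higher mean. Steap3 was also higher, at 1.41 to 2.21 TPM (log2 difference 0.99, SE 0.17, adjusted p = 5.09e-05, limma, scaled 0.80), as was Aco1 at 12.4 to 14.7 TPM (log2 difference 0.48, SE 0.06, adjusted p = 6.43e-07, limma, scaled 0.26). Steap4, another reductase of that family, was lower, at 1.04 to 1.36 TPM in F/F Tat and 0.386 to 0.680 TPM in ΔMye Tat (log2 difference -1.05, SE 0.19, adjusted p = 8e-05, limma, scaled -1.27), without overlap. However, Steap4 met the filter on low values only through F/F Tat, the group in which it was higher, so its difference adds no weight to the counts above. Lcn2 was lower in ΔMye Tat, at 852 to 927 TPM, with a log2 difference of -0.36 (adjusted p = 4.51e-09, limma, scaled -0.58). The neutrophil marker sum, again carried by S100a8 and Csf3r, was higher there, and its bearing on Lcn2 was not tested. Alas2, the erythroid form of the first haem synthesis enzyme, was at 0.0425 TPM or less in all libraries, beside the higher erythroid marker sum of ΔMye Tat given above.

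**Figure D5:**
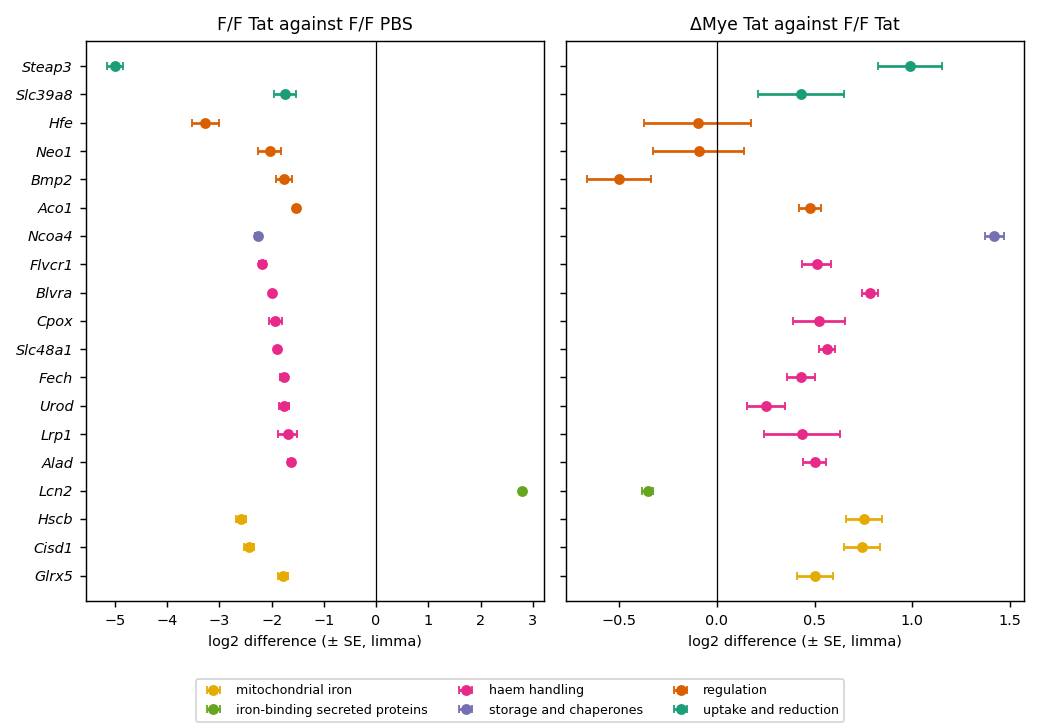
Fitted log2 difference with its SE, from TPM as deposited, for the called genes of the wider iron list that are named in the text and Aco1, coloured by group; the 2 panels have different axes. With Tat, Lcn2 at 2.79 is the one plotted gene above 0 and Steap3 at -5.001 lies lowest, and between ΔMye Tat and F/F Tat the highest value is that of Ncoa4 at 1.42.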

How the data were processed

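Total RNA from 17 PM cultures was sequenced (Illumina protocols). Salmon and the Ensembl annotation of GRCm38 were used by the authors to quantify the reads (mm10 in the submitters' processing notes), and the deposited values are TPM by gene symbol in 21683 rows, 2 of them repeating a symbol. The authors' own edgeR test used values not analysed here. The listed TPM summed to 889318 to 903576 per library. Depth is unknown, so the spread between libraries is the only measure of precision.

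Groups came from the sample labels. The tested genes reached 1 TPM in 5 libraries or more (10451, all 9 members among them). Their log2(TPM + 0.1) values entered 1 limma fit of the 3 groups with a mean-variance trend (limma 3.58.1, R 4.3.3, 14 residual degrees of freedom). Adjusted p (Benjamini-Hochberg) are over all tested genes. Called means an adjusted p under 0.01 and a fold over 3. TPM differences understate changes of low genes on this scale. For median-ratio scaling, a library was divided by the median, over genes, of its ratio to the geometric mean of the libraries. Within-library ratios were compared with exact permutation tests (two-sided, 12 tests, adjusted together). The members, wider lists and tests were chosen with earlier results of these data known. Named were the 9 members, every called gene of the wider list, Aco1, Ikbkb and the 3 genes nearest to each called member; Alas1, Hmox1, Alas2, Slc39a14 and Steap4 were named after their values were seen. A few genes that the rule names are left out here. Marker lists of B cells, T cells, mast cells or eosinophils and mesothelial cells summed to at most 25.4, 9.64, 9.29 and 4.75 TPM in any library.

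The alternatives tried were median-ratio scaling and quantile normalization, larger pseudocounts (0.5 and 1), the filter raised to 5 TPM or removed, the fold threshold removed, fits restricted to the compared groups, a robust fit with array weights, and the removal of single libraries. Adding Ftl1-ps1 to Ftl1 and Hamp2 to Hamp was chosen after seeing the data. Shared 31-base sequences and stem-loops came from GENCODE M21 transcripts, promoters from RefSeq (GRCm38.p6). Ratio tests used numpy 2.4.6 and figures matplotlib 3.10.9, in Python 3.11.15 with pandas 2.3.3.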

Additional observations from a re-analysis of the deposited data

Results flagged for a closer look

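Dixon's test of the highest and lowest sample was applied to 99 groups of values, those of the named genes and of the 4 ratios, and marked 3 of them (3.03%), where chance gives about 1 in 20. Hamp in F/F PBS was 0.400 TPM in library 4 and 0 in the other 5 libraries. Slc39a8, a zinc and iron importer, was 0.790 TPM in ΔMye Tat library 21, against 0.451 to 0.549 TPM in the other 4 libraries. The Fth1 to Ftl1 ratio in F/F PBS was 1.23 in library 2, against 1.16 to 1.19 in the other 5, still far under the lowest F/F Tat ratio of 3.16.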

How the results depend on the processing

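Limits of these data are TPM without depth, 5 to 6 libraries a group and a median gene that shifts between groups. The 4 members called with Tat became 2 with a pseudocount of 0.5 and 2 with 1 (Slc40a1 and Cp fell short of the fold) and 8 without the fold threshold. Against F/F PBS, the 4 members called in ΔMye Tat became 3 with median-ratio scaling, 2 with a pseudocount of 1 and 8 without the fold threshold, and the 0 called between the Tat groups became 3. For the wider list, the 19 genes called with Tat became 9 with median-ratio scaling, 12 with quantile normalization and 44 without the fold threshold, and the 0 between the Tat groups became 27. Leaving out 1 library at a time left these counts at 4, 4, 0, 19 to 20 and 0.

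Between the Tat groups, the log2 difference turned under median-ratio scaling to -0.088 for Slc11a2, -0.13 for Fth1 and -0.12 for Cp, and to -0.15 for Cp under quantile normalization. For Tat against PBS, Ireb2 turned to 0.54 with scaling and 0.56 with quantile normalization. Fth1 between the Tat groups also missed the threshold with either larger pseudocount, without the filter and in the fit of the compared groups alone (adjusted p 0.0114 to 0.103, limma), and with any one of 10 single libraries left out (adjusted p 0.0102 to 0.0286, limma). Hfe between the Tat groups ran from -0.31 to 0.062 with 1 library left out, above 0 without library 11 (0.045), 20 (0.061) or 23 (0.062). The Tfrc to Slc40a1 log2 ratio difference between the Tat groups was 0.07, -0.012 with 0.5 TPM added, and 0.0055 to 0.16 with 1 library left out. The Ireb2 to Aco1 difference ran from -0.31 to -0.18 with 1 library left out, and the adjusted p from 0.0433 (without F/F Tat library 10, at -0.30) to 0.166 (exact permutation test). The cause of these changes was not tested. No paired analysis was made. The replicate numbers run on from group to group, and the labels do not say whether a mouse gave cells to both F/F groups.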
